A study of Homo sapiens with 22 samples.

Results

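Semaphorins, their plexin and neuropilin receptors, and the Eph receptor tyrosine kinases were followed across 11 neuroblastoma cell lines kept in hypoxia or normoxia. The members were taken by gene symbol, as the SEMA, PLXN and EPHA or EPHB genes with a probeset of their own, together with NRP1 and NRP2. Not all Eph receptors were analysed here, ephrins were not taken, and 2 antisense genes were left out. This gave 43 of the 19775 genes measured, namely 20 semaphorins, 9 plexins, 2 neuropilins and 12 Eph receptors (8 EphA and 4 EphB). RNA of each line was hybridised to 22 Affymetrix HG-U133 Plus 2.0 arrays in all, 1 array per line and condition, after 18 h at 1% O2 (hypoxia, 11 arrays) or at 20% O2 (normoxia, 11 arrays). ACN, IMR-32, GI-ME-N, SK-N-SH, GI-LI-N, SK-N-F1, SK-N-BE2(C) and LAN-1 came from a cell line collection, while SHEP-2, SHEP21N with MYCN overexpression and SHEP21N without it came from a laboratory. The SHEP lines are related to each other, and how MYCN is switched in SHEP21N is not given in the sources used here. Hypoxia and normoxia were therefore compared over lines, with no repeat culture of any line.

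Semaphorins are secreted or membrane-bound guidance cues that steer growing axons and migrating neural crest cells, the cells from which neuroblastoma arises. They act through plexins, whose cytoplasmic part acts on small GTPases, and the secreted class 3 semaphorins mostly bind neuropilins as the ligand-binding part of a plexin complex. Eph receptors bind ephrins on the surface of neighbouring cells, and contact usually leads to repulsion or sorting of the cells.

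Values are MAS5 signals, the brightness of a probeset on a linear scale, and each gene was read by its brightest probeset. A level is the log2 of the signal over the median signal of the array, and array medians lay between 69.4 and 133.6. Signals were not compared between genes, because probesets differ in how strongly they hybridise.

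Some arrays and lines stood apart, which touches the results below. The normoxic array labelled SHEP21N with MYCN overexpression had a 3'/5' signal ratio of 67.3 for GAPDH and 94.0 for ACTB, against 0.94 to 1.40 and 1.18 to 5.05 on the other 21 arrays. The lowest signal was 3.3 on each of the 4 SHEP21N arrays and below 1 on the other 18. The MYCN signals did not separate the SHEP21N lines as labelled in normoxia: one probeset read 19 with and 6 without overexpression and the other read 13.7 and 28.7, while in hypoxia the first read 6 with and 12.7 without and the second 830.2 with and 25.3 without. Whether these probesets lie within the introduced MYCN is not given in the sources used here, and both lines are called below by their labels. Over 12519 genes with a mean signal of at least 100, SK-N-SH, GI-LI-N and IMR-32 resembled each other with correlations of 0.952 to 0.961, close to the 0.962 of the SHEP21N pair, and the next of the 55 pairs reached 0.873. SK-N-SH, from which SHEP lines are known to derive, correlated least with SHEP-2 (0.559). IMR-32, GI-LI-N and SK-N-BE2(C) correlated with SHEP-2 at 0.571, 0.579 and 0.591. Whether the label of SK-N-SH holds cannot be told from these values and was not tested. In hypoxia the first MYCN probeset read 35223 in SK-N-SH, 44726 in GI-LI-N and 44544 in IMR-32. It also read 37386 in LAN-1 and 67626.5 in SK-N-BE2(C). GI-LI-N and IMR-32 were as alike (0.958), so whether their own labels hold cannot be told either. Summed signals of 7 neuroblast markers were 334 to 3601 in ACN, GI-ME-N and the SHEP lines and 35120 to 72730 in the other 6, and in ACN PHOX2A and GATA3 read 35.0 and 12.8 while the Schwann cell markers SOX10 and S100B read 772 and 4605. Summed leukocyte and endothelial markers reached at most 470.04 and 509.5 in any line. Of 10 known hypoxia-responsive genes, 9 were called higher in hypoxia (adjusted p under 0.05, limma), and all 10 rose, with mean log2 changes of 1.16 to 2.33. All 10 are in the hypoxia signature that the authors drew from these lines, so their rise is no independent check.

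The bases upstream of the first listed start are shown for SEMA3C and SEMA6D, the members with the largest F statistic between lines, and for PLXNA1, the member with the smallest p in hypoxia. They are the 250 bases before the start in RefSeq, build GRCh38.p14, written 5′ to 3′ on the strand of the gene, at chr7:80922390-80922639 (minus strand) for SEMA3C, chr15:47183839-47184088 (plus strand) for SEMA6D and chr3:126982865-126983114 (plus strand) for PLXNA1. Capitals mark ACGTG or GCGTG, the core of the hypoxia response element, on either strand.
SEMA3C: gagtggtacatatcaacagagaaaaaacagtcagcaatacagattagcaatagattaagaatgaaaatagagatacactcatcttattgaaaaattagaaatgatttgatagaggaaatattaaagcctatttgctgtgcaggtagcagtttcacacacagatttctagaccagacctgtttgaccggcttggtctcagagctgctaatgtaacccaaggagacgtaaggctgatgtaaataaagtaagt
SEMA6D: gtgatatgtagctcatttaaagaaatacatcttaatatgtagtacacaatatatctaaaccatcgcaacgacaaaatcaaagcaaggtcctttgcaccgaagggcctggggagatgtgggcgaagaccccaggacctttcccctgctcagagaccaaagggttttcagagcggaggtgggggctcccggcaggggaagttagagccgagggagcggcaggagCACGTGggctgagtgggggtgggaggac
PLXNA1: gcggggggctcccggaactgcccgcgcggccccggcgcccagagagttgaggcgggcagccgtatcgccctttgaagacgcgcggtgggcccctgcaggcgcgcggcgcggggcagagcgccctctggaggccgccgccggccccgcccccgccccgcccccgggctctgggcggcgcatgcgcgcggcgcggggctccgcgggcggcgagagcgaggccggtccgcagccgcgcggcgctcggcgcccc
The stretch in capitals before SEMA6D is CACGTG, which holds ACGTG on both strands, and neither core occurred in the other two. Over the 38 members with an entry, ACGTG lay in 6 windows (15.8%) and GCGTG in 9 (23.7%), against 18.7% and 31.9% of 27305 windows of the same length. The letters CACGTG, which contain ACGTG, lay in 4 member windows (10.5%) and in 6.49% of all.

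The levels of most guidance genes were set apart by the cell line, with SEMA3C, SEMA6D, SEMA6A, PLXNC1 and SEMA5A in front. The cell lines differed in 31 of the 43 members (limma F test, adjusted p under 0.05), against a background of 64.2% of all genes. The share depended on brightness, since 25 of 30 members with a mean signal of at least 100 passed (83.3%) against 88.8% of all such genes, and 6 of the 13 dimmer members passed. By role, lines differed in 4 of 7 class 3, 5 of 6 class 4 and 4 of 7 class 5 to 7 semaphorins, in 8 of 9 plexins, both neuropilins, 5 of 8 EphA and 3 of 4 EphB receptors. The median share of the log2 variance that lay between lines was 84.1% for the members and 83.0% for all genes, so the members as a set varied about as other genes did. In whole cultures, fewer cells of a type and less RNA per cell cannot be told apart. SEMA3F, SEMA4B, SEMA4C, SEMA4F, PLXNA1, PLXNB2, PLXNC1, PLXND1 and NRP2 were above the array median on all 22 arrays, and 16 members were above it on under 11.

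**Figure D1:**
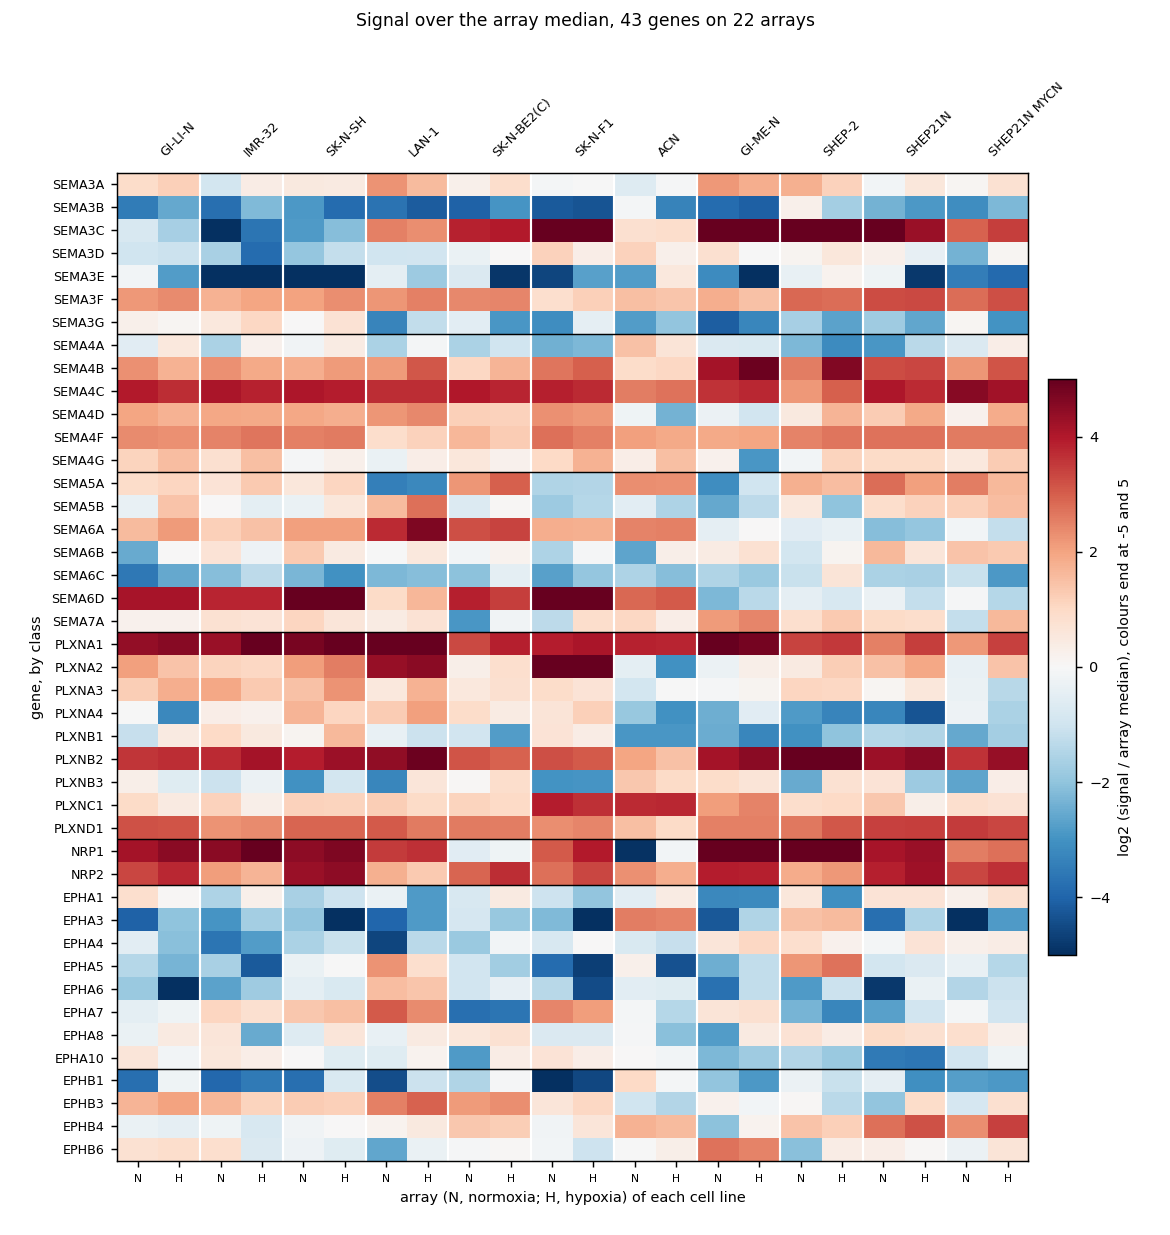
Level of each of the 43 genes (rows, by class) on the 22 arrays (columns, N for normoxia and H for hypoxia, by cell line; SHEP21N MYCN is the line with overexpression), as log2 of signal over the array median, with colours ending at -5 and 5. Both arrays of a line mostly share a colour for the bright genes, and SEMA3C, SEMA6D and NRP1 run from blue to dark red between lines.

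Among the secreted class 3 semaphorins, SEMA3C differed most, with 99.2% of its variance between lines (adjusted p = 4.0e-08, limma). In hypoxia and normoxia its signal was 11989 and 13312 in SHEP-2, 8321 and 6780.3 in GI-ME-N, 3113 and 3489 in SK-N-F1, 1738 and 1462 in SK-N-BE2(C), 1898 and 3007 in SHEP21N without and 1009.5 and 822 in SHEP21N with MYCN overexpression. It was 365 and 395 in LAN-1, 241 and 223 in ACN, 31 and 54.9 in GI-LI-N, 16.5 and 11.2 in SK-N-SH, and 7.83 and 2.68 in IMR-32. The highest and lowest line means were 10.99 log2 units apart, and the 3 lines whose profiles resembled each other were the lowest. A second SEMA3C probeset correlated with the first at 0.85 over the line means.

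SEMA3F, a ligand that mainly binds NRP2, varied less and was bright everywhere (adjusted p = 7.3e-05, limma). It read 741 to 979.8 on the 6 SHEP arrays and 142 to 605 on the other 16, so the sets did not overlap on signal, though the test over lines given below did not pass. SEMA3A, a repellent of axons that binds NRP1, ranged from 48.5 in normoxic IMR-32 to 464 in normoxic SHEP-2, and relative to the array median its line mean was highest in GI-ME-N and lowest in ACN. SEMA3D ranged from 6.79 to 283. Their adjusted p-values were 0.0024 and 0.028 (limma F test), and the call of SEMA3D was kept in 14 of 18 alternatives. Lines were not shown to differ in SEMA3B, SEMA3E and SEMA3G (adjusted p = 0.11, 0.11 and 0.071, limma F test), which were above the array median on 1, 2 and 7 arrays.

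Of the membrane-bound class 4 semaphorins, SEMA4F was among the steadiest genes with a clear line difference (adjusted p = 0.00016, limma). It read 128 and 164 in LAN-1, the lowest line, 754 and 806 in SHEP-2, and medians of 519.8 in normoxia and 487 in hypoxia. SEMA4B was highest in GI-ME-N (2465 in hypoxia, 1258 in normoxia) and SHEP-2 (3090.5 and 787) and lowest in ACN (273 and 242), with an adjusted p of 0.0015 (limma). SEMA4D, the ligand of PLXNB1, read 189 to 405 in 8 of the lines and less on some array of ACN (26 and 110.2), GI-ME-N (42.7 and 57.1) and SHEP21N with MYCN overexpression (337 and 126). Its adjusted p was 0.0049, and SEMA4A and SEMA4C gave 0.0033 and 0.0015 (limma). SEMA4G, between 11 and 377, gave 0.19 (limma).

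The transmembrane semaphorins SEMA6D and SEMA6A and the thrombospondin-repeat semaphorin SEMA5A carried the largest differences of the remaining classes. SEMA6D split the lines widely (adjusted p = 4.7e-07, limma, range of line means 7.12 log2 units). It read 3624 in hypoxia and 2990.0 in normoxia in SK-N-F1, 2714 and 2724 in SK-N-SH, 1714 and 1639.6 in GI-LI-N, 1382 and 1278 in IMR-32, 1205 and 1501 in SK-N-BE2(C) and 1114 and 957 in ACN. LAN-1 read 232 and 133.2, the 3 SHEP lines 34.7 to 103, and GI-ME-N 32.2 and 14.7, so that GI-ME-N and the SHEP lines lay below every array of the other 7 lines.

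SEMA6A was highest in LAN-1 (1873 in hypoxia, 928 in normoxia), SK-N-BE2(C) (1146 and 956) and ACN (751 and 729). It read 211 to 427 in GI-LI-N, IMR-32, SK-N-F1 and SK-N-SH, and 21 to 97 in GI-ME-N and the 3 SHEP lines (adjusted p = 9.8e-07, limma). The same lines were thus low in SEMA6D and SEMA6A, apart from LAN-1, and the levels of these 2 genes correlated at 0.66 over the 11 line means. Neuroblast marker sums were also low in GI-ME-N and the SHEP lines, and their part in these levels was not tested. ACN, which had the lowest marker sum, was among the higher lines for both genes.

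SEMA5A reached 881 in SK-N-BE2(C) in hypoxia and 647 in ACN, and fell to 7.95 and 6.56 in LAN-1 (adjusted p = 1.7e-05, limma). SK-N-F1 (31.9 and 28) and GI-ME-N (41.9 and 8.11) were also low, and all other arrays lay between 117 and 881. SEMA5B was highest in LAN-1 (adjusted p = 0.013, limma). The lines were not shown to differ in SEMA6B, SEMA6C and SEMA7A (adjusted p = 0.17, 0.14 and 0.11, limma F test).

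Lines differed in each plexin but PLXNB3 (adjusted p = 0.22, limma F test). PLXNA2 read 3417 in hypoxia and 3834 in normoxia in SK-N-F1 and 1678 and 1426 in LAN-1, against 16.4 to 427 on all other arrays (adjusted p = 0.00012, limma). PLXNC1, a receptor of SEMA7A, read 1793 and 1718 in ACN and 1102 and 1214 in SK-N-F1, against 115 to 459 elsewhere (adjusted p = 1.4e-05, limma). PLXNC1 and SEMA7A levels correlated at 0.05 over the line means. Of the other PLXNC1 probesets, one correlated with the brightest at -0.16 and the others at 0.89 and 0.93.

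PLXNB2, which binds class 4 semaphorins, was highest in SHEP-2 (4991 and 4669) and lowest in ACN (368 and 505), with 721 to 2241 elsewhere (adjusted p = 2.7e-05, limma). PLXND1 ranged from 254 in hypoxic ACN to 1219 in SHEP21N with MYCN overexpression in normoxia (adjusted p = 0.00024, limma). PLXNA1, a signalling partner of the neuropilins, ranged from 479.6 in SHEP21N to 3262 in LAN-1 (adjusted p = 0.00027, limma). PLXNA4 was highest in LAN-1 (306 and 167) and lowest in SHEP21N without overexpression (4.7 and 9.7), and relative to the array median PLXNA3 and PLXNB1 were highest in SK-N-SH. These 3 gave adjusted p-values of 0.0010, 0.0031 and 0.0016 (limma).

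The neuropilins differed between lines in separate ways. NRP1 read 5741 in hypoxia and 4981 in normoxia in SHEP-2, 3724 and 4221 in GI-ME-N, 3118 and 2096 in IMR-32 and 2210.0 and 1684 in GI-LI-N. It read 1891 and 1627 in SHEP21N without and 615 and 635 in SHEP21N with MYCN overexpression, 1825 and 1784 in SK-N-SH, 1351 and 665 in SK-N-F1 and 924 and 784 in LAN-1. SK-N-BE2(C), at 95.3 and 69.2, and ACN, at 121 and 4.18, lay below all other lines (adjusted p = 0.00016, limma). NRP2 was detected above the array median in every line, from 183 and 238 in LAN-1 to 1579 and 1585 in SK-N-SH, the line with the highest level, and 1805 and 1361 in SHEP21N without overexpression (adjusted p = 6.8e-05, limma). ACN and SK-N-BE2(C), the lines with least NRP1, read 466 and 636 and 1421 and 768 for NRP2.

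**Figure D2:**
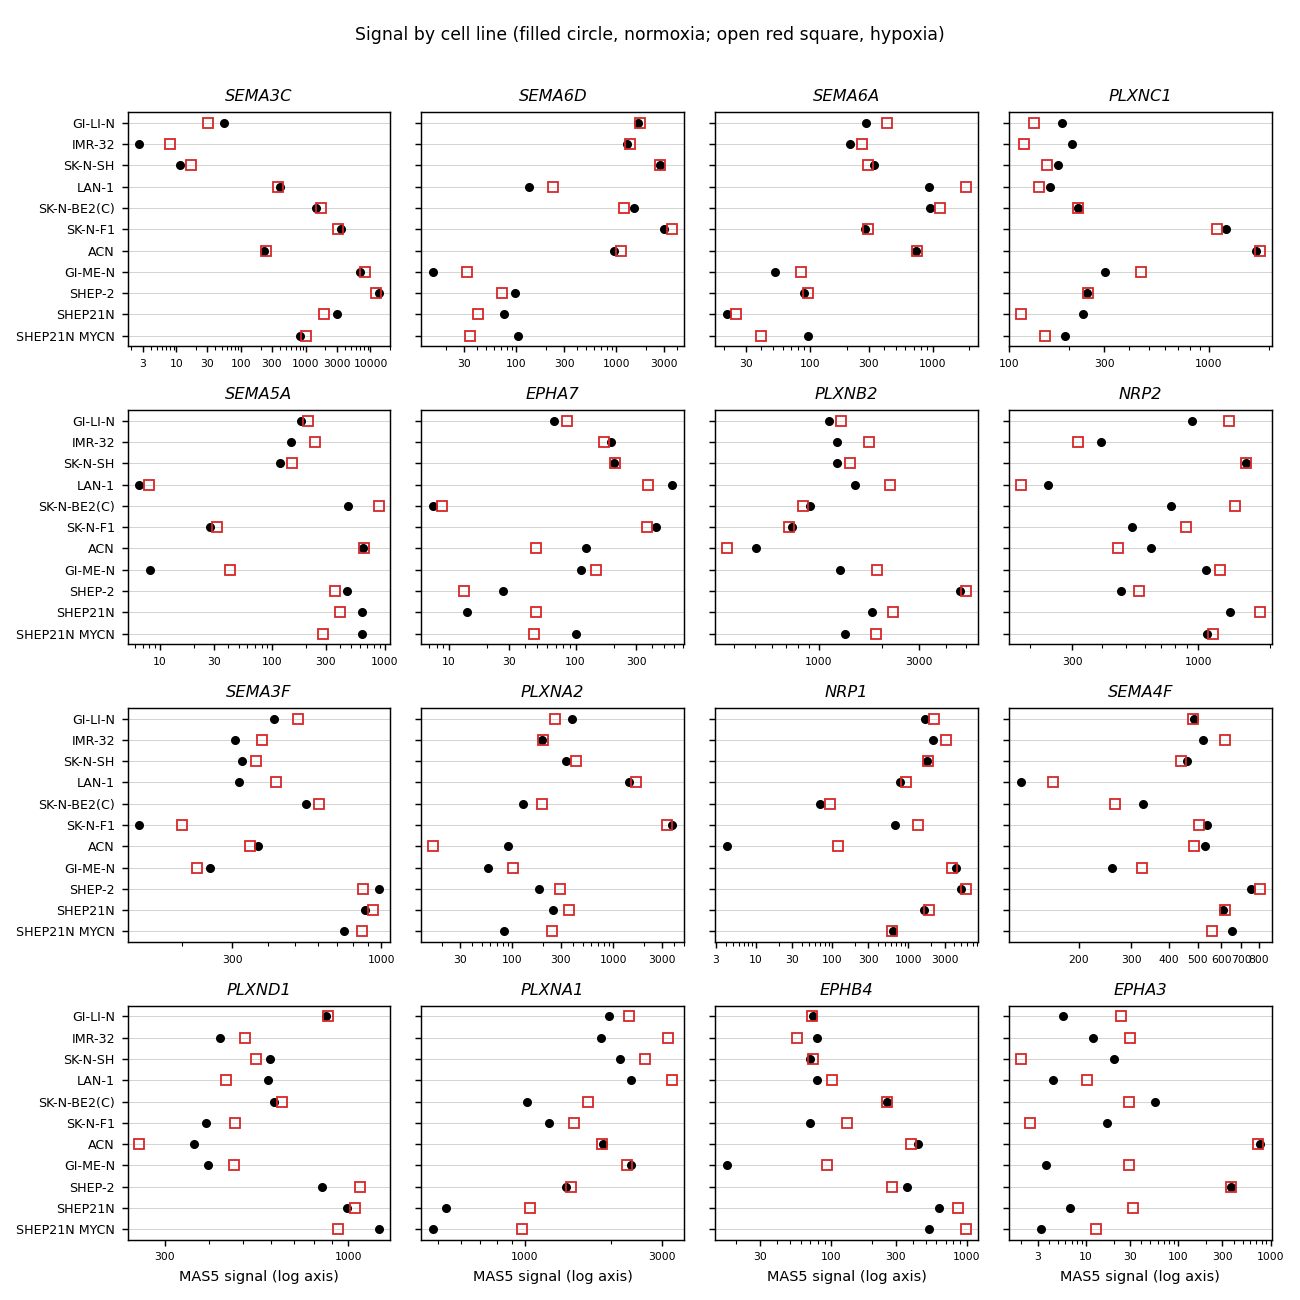
MAS5 signal (log axis) of the 14 members with the largest line F statistic, and of EPHB4 and EPHA3, in each of the 11 lines, with a filled circle for the normoxic and an open red square for the hypoxic array. SEMA3C is lowest in IMR-32 and highest in SHEP-2, SEMA6D and SEMA6A are low in GI-ME-N and the SHEP lines, and NRP1 is low in ACN and SK-N-BE2(C).

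Of the 8 EphA receptors, 7 were above the array median on under 11 arrays. EPHA7, the receptor with the largest F statistic, read 376 in hypoxia and 579 in normoxia in LAN-1 and 369 and 432 in SK-N-F1, and 8.8 and 7.53 in SK-N-BE2(C) (adjusted p = 1.8e-05, limma). SK-N-SH and IMR-32 lay between, at 168 to 206. EPHA3, EPHA5 and EPHB4 were singled out after their values were seen. EPHA3 was bright in 2 lines, with 736 and 763 in ACN and 371 and 371 in SHEP-2 and 1.97 to 56.5 on all other arrays (adjusted p = 0.010, limma), and a second probeset that correlated with it at 0.91 reached 3934 in the same line, ACN. SHEP-2 thus read 371 where the SHEP21N lines read 3.3 to 32.7. EPHA5 showed the same split among SHEP lines, with 833 and 612 in SHEP-2 against 34.3 to 82.7 in SHEP21N, and LAN-1 followed with 131 and 332 (adjusted p = 0.0044, limma). SHEP-2 and SHEP21N also differ in the lowest signal of their arrays, and the part of this in the split was not tested.

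EPHB4, the receptor of ephrin-B2, was highest in SHEP21N without (863 in hypoxia, 622 in normoxia) and with MYCN overexpression (991 and 530.3), then ACN (389.9 and 436), SHEP-2 (284 and 361) and SK-N-BE2(C) (261 and 257). It read 17 to 131 in the other 6 lines (adjusted p = 0.00033, limma), and a second EPHB4 probeset correlated with this one at 0.34. Relative to the array median, EPHB3 was highest in LAN-1 and lowest in ACN, and EPHB6, a receptor without kinase activity, was highest in GI-ME-N and lowest in LAN-1 (adjusted p = 0.0074 and 0.045, limma). EPHA4 and EPHA10 also passed (adjusted p = 0.0094 and 0.0069, limma). The call of EPHB6 was kept in 11 of 19 alternatives, with an adjusted p of up to 0.44, and that of EPHA10 in 14 of 18. EPHA1, EPHA6, EPHA8 and EPHB1 did not (adjusted p = 0.11, 0.21, 0.58 and 0.095, limma F test), and EPHA8 had the smallest share of variance between lines of all members (44.8%).

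**Figure D3:**
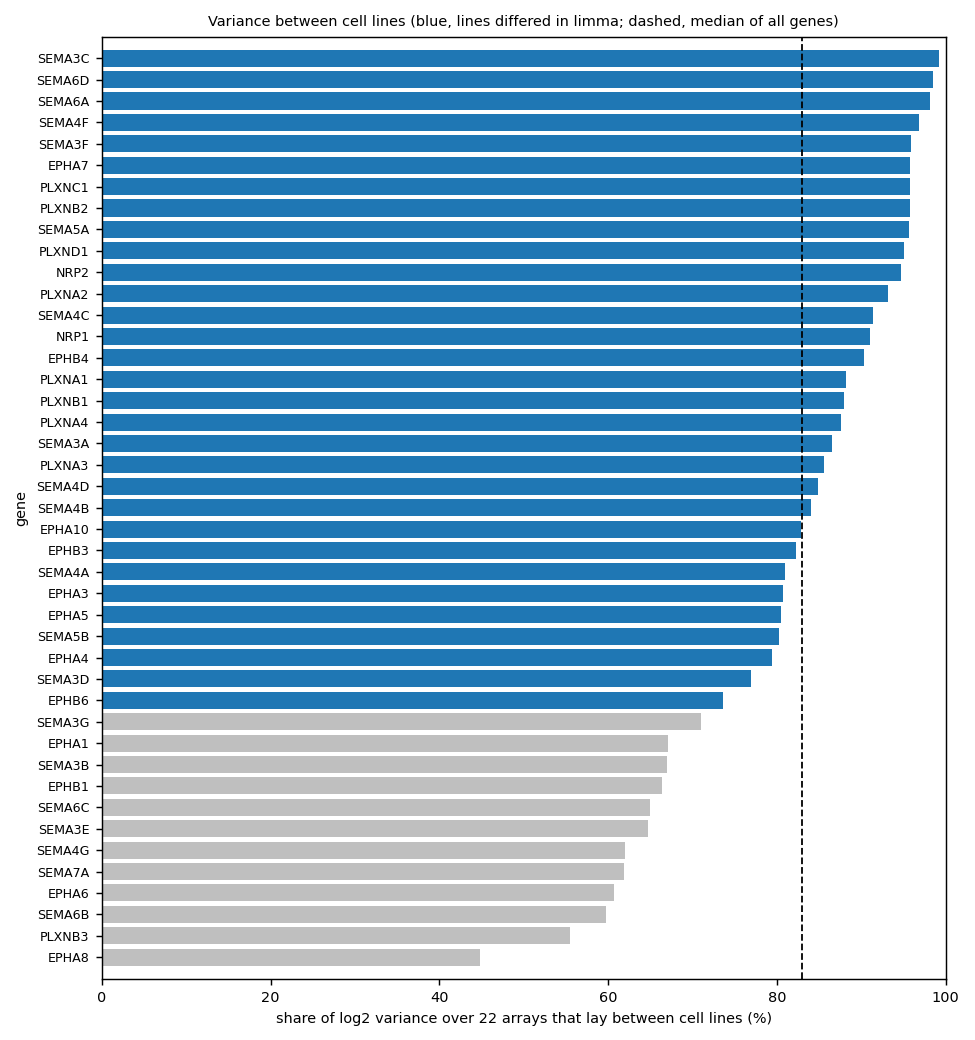
Share of each member's log2 variance over 22 arrays that lay between cell lines, in percent. Blue bars mark the 31 members that differed between lines and the dashed line is the median of all genes (83.0%); SEMA3C, at 99.2%, is the highest and EPHA8, at 44.8%, the lowest.

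A second probeset was available for 35 members. Among the 28 of these that differed between lines, the second probeset correlated above 0.8 with the first in 13 and had the same highest line in 15. The lowest of these correlations were -0.74 for SEMA4A, -0.42 for PLXNB1, -0.23 for EPHA10 and -0.16 for PLXNC1. The second probesets of PLXNB2 and PLXNA1 correlated with the first at 0.15 and 0.42, and those of NRP1 and NRP2 at 0.94 and 0.95.

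Whether low oxygen changes these genes was asked within lines. No member was called, against a background of 0.162% of all genes (32 genes), and 3 members had an unadjusted p under 0.05, against 10.7% of all genes (limma with cell line as block). All 3 were higher in hypoxia, against 3.6% of all genes higher and 7.07% lower at that p, and they were PLXNA1, SEMA4B and SEMA4A. A paired t-test over all genes also called none, with 2 members at an unadjusted p under 0.05. The methods used a t-test on probesets changed at least 2-fold, and that filter was not applied here. Mean log2 changes ran from -0.91 (EPHA5) to 0.89 (PLXNB3), so no estimated mean reached 2-fold for the probesets read. They were above 0 in 31 members (72.1%) and in 44.4% of all genes, and the median was 0.18 for members and -0.04 for all genes. Standard errors ran from 0.09 to 0.69, with a median of 0.31. They were 0.46 for EPHA5 and 0.55 for PLXNB3, so mean changes of 2-fold or more were not excluded.

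PLXNA1 had the smallest p (mean log2 change 0.40, SE 0.14, adjusted p = 0.34, limma), and its signal was higher in hypoxia in 9 of 11 lines after scaling. In hypoxia it read 3262 in LAN-1, 3144 in IMR-32, 2629.9 in SK-N-SH, 2311 in GI-LI-N, 2261 in GI-ME-N and 1861 in ACN, and 976 to 1658 in the other 5 lines. In normoxia the same 6 lines read 2349, 1839, 2152, 1969, 2337 and 1875, and the other 5 read 479.6 to 1388, so the conditions overlapped. Without both SHEP21N lines, where it read 1041 and 976 in hypoxia and 532 and 479.6 in normoxia, the mean change was 0.25. The largest change, 1.24, was in SHEP21N with MYCN overexpression, whose normoxic array had the high 3'/5' ratios. The other PLXNA1 probesets, both dimmer, had mean changes of 0.13 and -0.51.

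SEMA4B came next (0.49, SE 0.21, adjusted p = 0.45, higher in 9 of 11 lines, limma). Its widest gap was in SHEP-2, at 3090.5 in hypoxia and 787 in normoxia, and the mean change without SHEP-2 was 0.33. Over the lines SEMA4B read 273 to 3090.5 in hypoxia (median 641) and 209 to 1258 in normoxia (median 461), and the conditions overlapped. SEMA4A, dim in most lines, read 14.3 to 207 in hypoxia (median 68.2) and 12.3 to 353 in normoxia (median 34.5), with a mean change of 0.60 (SE 0.26, adjusted p = 0.45, higher in 8 of 11 lines, limma).

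EPHA5, SEMA7A and PLXNC1 followed in order of p. EPHA5 read 3.29 to 833 in hypoxia (median 34.3) and 5.46 to 612 in normoxia (median 52.8), a mean change of -0.91 (SE 0.46, adjusted p = 0.51, limma) in a gene above the array median on 5 arrays. Its direction turned with the mean of all probesets (0.31), the other 2 probesets gave 1.11 and 0.72, the change was -0.30 with signals under 50 set to 50, and without ACN it was -0.54. SEMA7A read 99.1 to 447 in hypoxia (median 161) and 13.6 to 310.1 in normoxia (median 156), a mean change of 0.68 (SE 0.36, adjusted p = 0.53, limma). The widest gaps were in SK-N-BE2(C), SK-N-F1 and SHEP21N with MYCN overexpression. The other SEMA7A probeset, a dimmer one, had a mean change of 0.04. PLXNC1 was lower in 8 of 11 lines by up to 1.06, a mean change of -0.25 (SE 0.14, adjusted p = 0.55, limma). Its other probesets, all dimmer, had mean changes of 0.40, -0.62 and -0.69. The conditions overlapped for all 3 genes.

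The neuropilins did not pass either. NRP1 was higher in hypoxia in 10 of 11 lines after scaling, with a mean change of 0.68 (SE 0.40, adjusted p = 0.58, limma). The widest gap was in ACN, at 121 against 4.18, and without ACN the mean change was 0.26. The exception was GI-ME-N, at 3724 in hypoxia and 4221 in normoxia, and on the signal itself SHEP21N with MYCN overexpression was lower too, at 615 and 635. NRP2 had a mean change of 0.15 (SE 0.14, adjusted p = 0.75, higher in 7 of 11 lines, limma). In all, 4 members were higher in at least 9 lines, namely PLXNA1, SEMA4B, NRP1 and SEMA4G, against 4.56% of all genes, and 0 were lower in as many, against 9.84%.

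**Figure D4:**
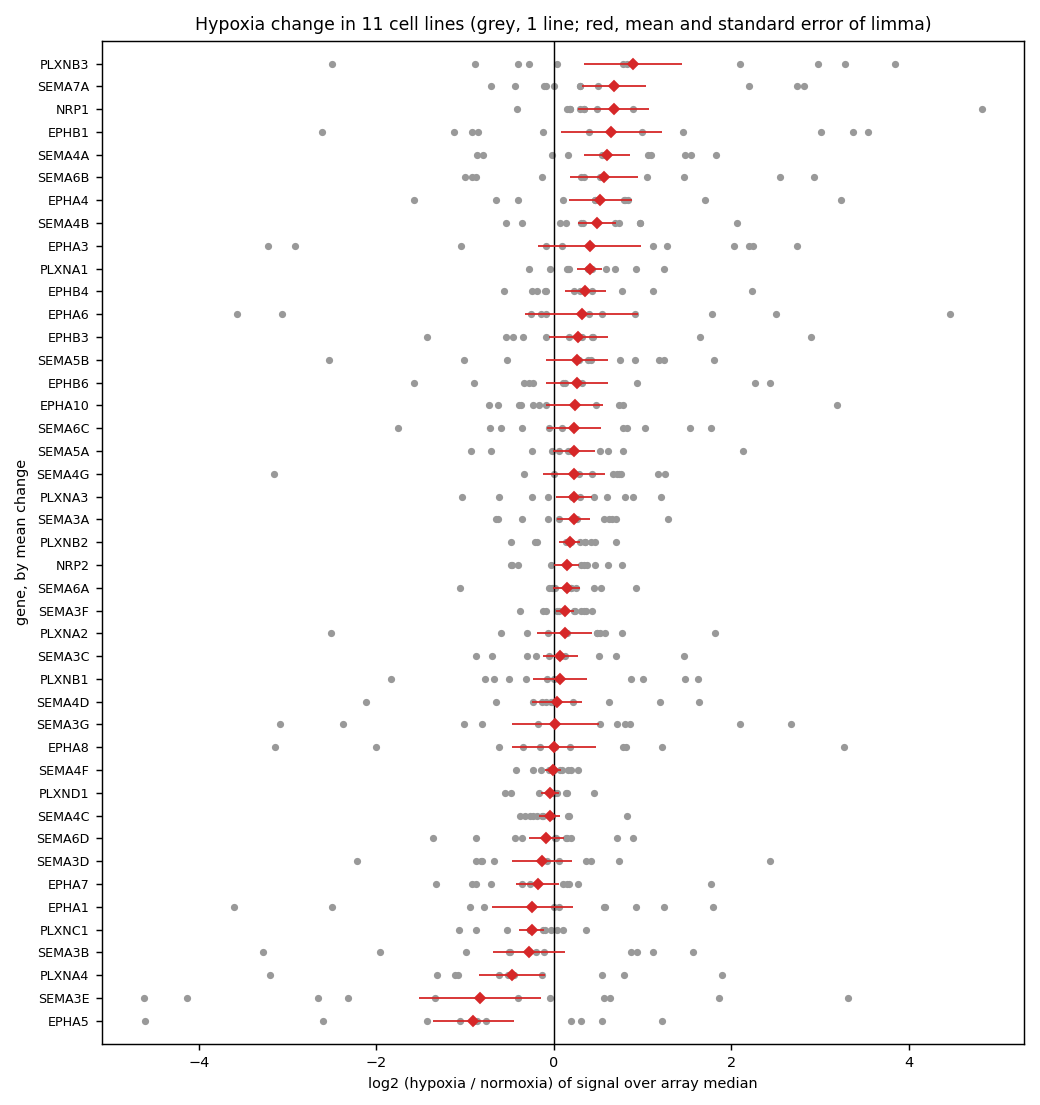
Log2 change of hypoxia over normoxia of each member, with a grey point for each of the 11 lines and a red diamond with its standard error for the mean in the limma fit. The means run from -0.91 (EPHA5) to 0.89 (PLXNB3), the points of most genes lie on both sides of 0, and none of the 43 passed the test.

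The 3 SHEP lines were compared with the 8 collection lines, the grouping that origin gives. SEMA6A was the only member called, lower in the SHEP lines (log2 difference -3.16, SE 0.76, adjusted p = 0.048, limma on 11 line means), against a background of 1.05% of all genes called lower, 1.55% called higher and 2.6% in both directions. The mean level was -1.06 in the SHEP lines and 2.10 in the others, and GI-ME-N, a collection line, read 84.1 and 52, inside the SHEP range of 21 to 97. Summed neuroblast markers were 2038 to 3010.0 in the SHEP lines and 334 to 72730 in the others, and summed mesenchymal markers 60606 to 122224 and 15060 to 160380, and their part in the difference was not tested. The SHEP lines are related and were counted as 3, so this p may be too small. The call was kept in 4 of 21 alternatives, and the adjusted p ranged from 0.010 without GI-ME-N to 0.94 with the SHEP lines averaged to 1. Leaving out GI-LI-N, SHEP-2, SK-N-BE2(C), IMR-32, SK-N-F1, LAN-1, SK-N-SH or either SHEP21N line also ended it. The SHEP21N arrays, with their raised lowest signal, hold 2 of the 3 SHEP lines, so that origin and array set cannot be told apart for them. Without them the difference was -2.57 (adjusted p = 0.44, SHEP-2 alone against 8 lines and assumed to vary as they do).

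At an unadjusted p under 0.05, 5 members were higher and 5 lower in the SHEP lines, against 11.3% and 9.19% of all genes. EPHB4 was higher by 2.19 (SE 0.59, adjusted p = 0.072) and SEMA3F by 1.14 (SE 0.39, adjusted p = 0.13), PLXNA1 was lower (-1.39, SE 0.43, adjusted p = 0.10) and so was SEMA6D (-3.77, SE 1.21, adjusted p = 0.11), all on the log2 scale by limma and none called. Without ACN, EPHB4, PLXNA1 and SEMA6A were called.

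The change in hypoxia was not shown to differ between the SHEP and the other lines for any member, with 0 of 43 called against a background of 0.0101% of all genes (2 genes), and 5 at an unadjusted p under 0.05 against 11.7% (limma on 11 within-line changes). The smallest p belonged to SEMA6D, with mean log2 changes of -0.87 in the SHEP lines and 0.21 in the others (difference -1.08, SE 0.31, adjusted p = 0.31). SEMA4D followed, with 1.15 and -0.38 (difference 1.53, SE 0.46, adjusted p = 0.32, limma). SHEP21N with MYCN overexpression, whose normoxic array had the high 3'/5' ratios, gave the lowest SEMA6D change (-1.36) and the highest SEMA4D change (1.64) of all lines. In SHEP-2 and SHEP21N without overexpression, SEMA6D changed by -0.36 and -0.88 and SEMA4D by 1.19 and 0.62.

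The arrays labelled SHEP21N with and without MYCN overexpression were set side by side with no test, since each had 1 array per condition. In both conditions SEMA4A, PLXNA4 and EPHA10 were at least 2-fold higher and NRP1 and EPHA3 at least 2-fold lower on the arrays labelled with overexpression, against 3.19% and 3.1% of all genes. NRP1 differed by -1.58 in hypoxia and -1.57 in normoxia on the log2 scale, from signals of 615 and 1891 and of 635 and 1627. SEMA4A, PLXNA4, EPHA10 and EPHA3 were dim there, with signals of 3.3 to 116 on the 4 arrays. Over the line means the second probesets of SEMA4A and EPHA10 correlated with the ones read at -0.74 and -0.23. Those of PLXNA4, EPHA3 and NRP1 correlated at 0.83, 0.91 and 0.94. The second SEMA4A probeset was highest in SHEP21N without overexpression, so the SEMA4A difference depends on the probeset. The normoxic array with overexpression is the one with the high 3'/5' ratios.

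Downstream and partner genes were read from lists. Of 23 measured partners of semaphorins and plexins (MICAL and collapsin response mediator proteins, co-receptors, kinases and small GTPase regulators), 0 were called in hypoxia, and 0 reached an unadjusted p under 0.05 against 10.7% of all genes. Lines differed in 22, against 64.2% of all genes and 88.8% of genes with a mean signal of at least 100. MICAL3, an oxidoreductase that acts on actin, had a mean log2 change of 0.33 (SE 0.17, adjusted p = 0.53), and DPYSL4, a collapsin response mediator, of 0.46 (SE 0.24, adjusted p = 0.53, limma, both higher in 9 of 11 lines). CRMP1, a mediator of SEMA3A signals, and L1CAM, an adhesion molecule that pairs with NRP1, were called lower in the SHEP lines, with log2 differences of -5.50 and -5.74 (adjusted p = 0.039 and 0.042, limma). Geometric mean signals of CRMP1 were 76.1 to 129 in the SHEP lines, 175 in ACN, 658 in GI-ME-N and 6109 to 11825 in the other 6. L1CAM read 21.7 to 99.6 in the SHEP lines, 24.7 in GI-ME-N and 2681 to 4514 in the other 7. Each of these calls was kept in 7 of 21 alternatives.

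Of 19 measured partners of Eph receptors (adaptors, exchange factors and kinases), 0 were called in hypoxia and 1 reached an unadjusted p under 0.05 (10.7% of all genes). ITSN1, an endocytic adaptor, had a mean log2 change of -0.25 (SE 0.10, adjusted p = 0.42), and CHN1, a Rac-inactivating protein downstream of EphA4, of -0.16 (SE 0.10, adjusted p = 0.60, limma). Lines differed in 16 (64.2% of all genes, 88.8% of genes with a mean signal of at least 100). CHN1 was called lower in the SHEP lines (log2 difference -2.09, adjusted p = 0.048, limma), a call that was kept in 7 of 21 alternatives. Of the 18 netrin, slit and RGM guidance genes, 0 were called in hypoxia and 3 reached an unadjusted p under 0.05, against the same 10.7% of all genes. Lines differed in 15, against the same 64.2% of all and 88.8% of brighter genes. UNC5A, a netrin receptor, had a mean log2 change of 0.50 (SE 0.18, adjusted p = 0.37), and ROBO2, a slit receptor, of 1.16 (SE 0.46, adjusted p = 0.40, limma). CRMP1, L1CAM and CHN1 were named after their values were seen.

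Levels of members were set against each other over the 11 line means, as a description only, since 3 lines have near-identical profiles and 3 are related. Of 903 pairs, EPHA8 and SEMA3F (r = 0.89), NRP1 and PLXNB2 (0.84), PLXNA2 and SEMA4D (0.81) and SEMA3C and SEMA3D (0.80) were most alike, and EPHA3 and SEMA4C (-0.91) and EPHB4 and PLXNA1 (-0.88) most opposed. The line means of EPHA8 are uncertain, since lines were not shown to differ in it (adjusted p = 0.58, limma F test). Among known ligand and receptor pairs, SEMA4D and PLXNB1 had r = 0.79 and SEMA6A and PLXNA4 had r = 0.72. SEMA3A and NRP1 had 0.47, SEMA3F and NRP2 0.19, SEMA3C and NRP1 0.05, and SEMA5A and PLXNA1 -0.72. SEMA6D and PLXNA1 had 0.35, SEMA5A and PLXNB3 0.33, and SEMA6A and PLXNA2 0.27. SEMA4C and PLXNB2 had 0.14, SEMA3C and NRP2 0.09, and SEMA3E and PLXND1 -0.05. PLXNB1 was above the array median on 7 arrays, and its second probeset correlated with the one read at -0.42.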

How the data were processed

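RNA of 11 cell lines was hybridised in hypoxia and normoxia, and the authors deposited 1 signal intensity per probeset and array, made with MAS5 per the labels and scaled to a common target. A genome build is not given in the sources used here. Of 54675 probesets, 41091 named 1 gene in the platform annotation, 1801 named several and were not used, and 11783 named none or were controls. The brightest probeset by mean log2 stood for each of 19775 genes, and the log2 of the deposited intensity over the array median was taken. The number of arrays limits the precision.

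Groups came from the labels. Tests were made with limma 3.58.1 in R 4.3.3 over all genes: the hypoxia effect with cell line as block, which pairs the 2 arrays of a line by its name, an F test over lines, the SHEP lines against the others on line means, and the same contrast on within-line changes. Calls had a Benjamini-Hochberg adjusted p under 0.05. With 1 culture per line and condition, line differences are measured against the within-line spread only. Tests were checked on simulated data with planted log2 changes. The hypoxia test called 47 of 100 changes of 1 and 77 of 100 changes of 2. The SHEP comparison called 23 of 100 differences of 2 and 82 of 100 of 4. The F test over lines called 89 of 200 differences of 3 planted in a single line. Of 19575 genes with nothing planted, these tests called 8, 4 and 5.

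Values are given in full for the 6 members with the smallest hypoxia p, the 14 with the largest F, both neuropilins and members called in the other tests, for 2 genes of each partner list and for 6 member pairs. The members and lists were chosen with earlier results of these data known. Alternatives changed scaling, a floor of 50, a filter at a mean signal of 100, the probesets of a gene, the block and the lines used. One was a paired t-test over all genes, without the 2-fold filter of the methods. Promoter windows came from RefSeq GRCh38.p14. Computation outside R used Python 3.11.15, pandas 2.3.3, numpy 2.4.6 and matplotlib 3.10.9.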

Additional observations from a re-analysis of the deposited data

How the results depend on the processing

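In hypoxia 0 members were called in every alternative run. These included limma with no replicate block (0 members, 4 genes of all), the paired t-test and each cell line left out in turn (0 to 0). The same held for the contrast of hypoxia changes between SHEP and other lines (0 to 0). The number of genes called in hypoxia over all genes was 32. It was 79 with the floor of 50, 104 with the filter at 100, 105 by the paired t-test and 14 with the mean of all probesets. It was 13 without both SHEP21N lines, 8 with the SHEP lines averaged, 2 with SK-N-SH, GI-LI-N and IMR-32 averaged, and 7 to 28 with a line left out. Of the 32 calls 90.6% were higher in hypoxia, against 83.3% on the deposited scale and 80.0% after quantile normalization. The share was 63.3% with the floor, 56.7% with the filter and 34.3% by the paired t-test. Members that differed between lines numbered 29 to 35, except 25 of the 30 left by the filter, and 30 to 34 with a line left out; the line calls of EPHB6 (kept in 11 of 19 alternatives), EPHA10 and SEMA3D (14 of 18 each) were the least settled. The comparison of SHEP lines with the others was less settled. It called 1 member, and 0 with values as deposited, with the mean of all probesets, without both SHEP21N lines, with SK-N-SH, GI-LI-N and IMR-32 averaged, with normoxic or hypoxic arrays only, and with the 3 SHEP lines averaged (an alternative chosen for this test after seeing the data). It called 2 after quantile normalization (SEMA3F and SEMA6A), and with the floor of 50 it called EPHB4 in place of SEMA6A. With a line left out it called 0 to 3, the 3 without ACN (EPHB4, PLXNA1 and SEMA6A) and 2 without GI-ME-N (SEMA6A and SEMA6D). Over all genes this comparison called 514, against 1763 without ACN, 1146 without GI-ME-N, 128 with the 3 alike lines averaged, 27 without both SHEP21N lines and 3 with the SHEP lines averaged. The deposited scale moved its median over all genes from 0.09 to 0.33 and the share of higher calls from 59.7% to 71.6%. In all, 2 estimates turned sign, both with the mean of all probesets, namely EPHA5 in hypoxia (0.31) and EPHA8 in the SHEP lines (-0.041), and neither was called. Of 670 values of single genes under alternatives, 646 kept direction and side of the threshold, 17 lost and 5 gained a call. All 17 losses were of SEMA6A in the SHEP comparison, kept in 4 of 21 alternatives. The 670 include the line test of the 14 members with the largest F, which kept their calls throughout. The cause of these changes was not tested. With 1 array per line and condition, dim members limit the precision: the median standard error of the hypoxia change was 0.37 under a mean signal of 100 and 0.23 above.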
